A study of Homo sapiens with 4 samples.

Results

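The genes described here are the angiomotins AMOT, AMOTL1 and AMOTL2, the Ajuba-type LIM protein genes AJUBA, LIMD1 and WTIP, and the tyrosine phosphatase gene PTPN14. They were taken by gene name, 7 of the 58735 genes in the count table, because their proteins bind YAP or the LATS kinases of the Hippo pathway. The cells were SW1990, an established human pancreatic cancer line. For 24 h they received gomisin G at 10 µM (2 libraries), a plant lignan found in Schisandra, or vehicle (2 libraries). No genetic change was made in either group, and nothing in the labels gives the libraries of a group different cultures of origin, which leaves the spread behind each p-value possibly technical.

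In the Hippo pathway the LATS kinases phosphorylate the coactivators YAP and TAZ, which then stay out of the nucleus and no longer act with TEAD factors on their target genes. Angiomotins are scaffolds of tight junctions and actin filaments that hold YAP and TAZ in the cytoplasm and can also promote LATS activity. Ajuba-type LIM proteins sit at cell junctions, bind LATS kinases and restrain them. PTPN14 binds YAP through its proline-rich motifs and keeps it out of the nucleus. AMOTL2, AJUBA and PTPN14 also appear in published lists of YAP/TAZ target genes, so these adaptors are both regulators and readouts of the pathway.

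AMOTL2 and AJUBA fell with gomisin G, AMOTL2 to 14.1% and AJUBA to 36.5% of the vehicle level in the fitted model. AMOT and PTPN14 lay at 52.8% and 56.7% of the vehicle level without passing the test, LIMD1 and WTIP did not pass it either, and AMOTL1 was too scarce to test. Calls here are Benjamini-Hochberg adjusted p-values below 0.05 from the edgeR quasi-likelihood test over the 15721 genes that passed the expression filter. Of the 7 genes, 6 were tested, 2 were called lower and 0 higher (0 higher by DESeq2 and limma voom too), and 4 had an unadjusted p below 0.05, as did 20.6% of all tested genes. Over all tested genes 0.903% were called lower and 0.922% higher, 1.83% in all. Both gomisin G libraries lay below both vehicle libraries for 5 of the 6 genes, as they did for 27.3% of all tested genes, and above both for 0 of the 6 (27% of all tested genes). The median log2 change of the 6 was -0.87, and that of all tested genes 0.0092. Log2 changes moved with gene length, as described below, and with that trend removed the median of the 6 was -0.66.

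**Figure D1:**
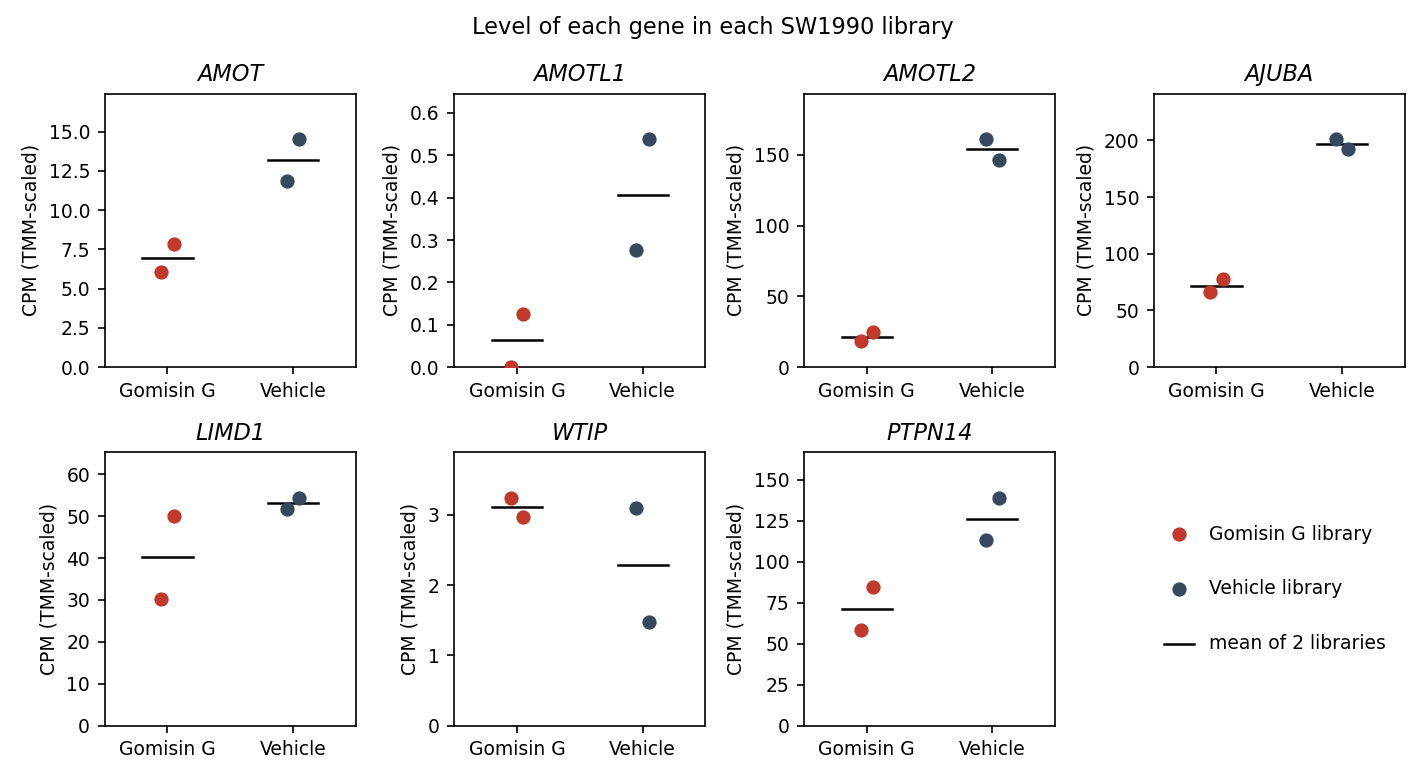
CPM (counts scaled to library size with TMM factors) of the 7 genes in each SW1990 library, with gomisin G libraries in red on the left, vehicle libraries in dark blue on the right, and bars at the mean of 2 libraries. The panels start at 0 and have their own scales, and the groups are far apart for AMOTL2 (18.7 and 24.5 CPM with gomisin G, 161.0 and 146.4 CPM with vehicle) and AJUBA, while those of WTIP overlap.

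Total counts ranged from 14580848 to 15245770 per library, so 3 counts, the floor for a count of 0, equal 0.197 to 0.206 CPM. The listed markers of ductal epithelium were detected, with 10 of 10 tested and summed levels of 7160 to 9570 CPM with gomisin G and 9630 to 11500 CPM with vehicle. Of 9 fibroblast markers 2 were tested, with sums of 8.57 to 12.1 CPM with gomisin G and 4.83 to 4.91 CPM with vehicle, and COL1A2, LUM and THY1 had no counts. The 4 endothelial markers summed to 0.207 to 0.821 CPM with gomisin G and 0.269 to 0.966 CPM with vehicle, with KDR at 0. The part of these shifts in the results below was not tested.

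The promoters of several of these genes hold the letters GGAATG, the core bound by TEAD factors. RefSeq promoter windows (250 bases before to 50 after a transcription start, build GRCh38.p14) were found for 6 of the 7 genes, 8 windows in all, and LIMD1 was not among them. GGAATG, searched on both strands, was in 4 of the 8 windows, those of AMOTL2, AJUBA, PTPN14 and WTIP, and in 14% of all 35116 windows of that length. The AP-1 motif TGANTCA (both strands) was in 0 of the 8 and in 7.71% of all windows, and the CArG box of the serum response factor in 0 of the 8 and in 1.29% of all windows. The matches before a start are shown because AMOTL2, AJUBA and PTPN14 are listed YAP/TAZ targets and WTIP holds the same letters. Each stretch reads 5′ to 3′ on the gene's strand, with the motif, or its reverse complement CATTCC, in capitals.
AMOTL2: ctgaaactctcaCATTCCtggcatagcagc
AJUBA: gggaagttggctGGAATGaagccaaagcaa
PTPN14: cctcccgggccgCATTCCtccccgcccccg
WTIP, upstream match: ccactccccccaCATTCCagaggccgcagc
WTIP, downstream match: tctccttcctcgCATTCCtgcccccgcaaa

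The AMOTL2 stretch lies at chr3:134374499-134374528 (minus strand) and its motif 69 to 64 bases before the start. The stretch overlaps an annotated UTR exon of another AMOTL2 transcript. The AJUBA stretch lies at chr14:22976884-22976913 (minus strand), with its motif 59 to 54 bases before a start inside the gene. It likewise overlaps an annotated UTR exon of another transcript. The window at the outer AJUBA start and the window at the outer AMOTL2 start had no match. The PTPN14 stretch lies at chr1:214551785-214551814 (minus strand), in an intron of a longer transcript, with the motif 200 to 195 bases before the start. The WTIP stretches lie at chr19:34481629-34481658 and chr19:34481663-34481692 (plus strand), and both overlap an annotated UTR exon of a longer transcript. A further WTIP match covers bases 1 to 6 after the start. A match is a description of the letters, not a site or a cause.

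AMOTL2 encodes an angiomotin-like scaffold that binds YAP and ties cell junctions to actin filaments. The gene (ENSG00000114019) lies on chromosome 3 at 134355874 to 134375479 on the minus strand of GRCh38. It had 270 and 388 counts in the gomisin G libraries and 2334 and 2175 counts in the vehicle libraries. Scaled to library size these were 18.7 and 24.5 CPM with gomisin G and 161.0 and 146.4 CPM with vehicle. The groups did not overlap, and the higher gomisin G library lay far below the lower vehicle library. In RNA from whole cultures, fewer cells with a transcript and less of it per cell cannot be told apart. The log2 change was -2.83 (SE 0.19, edgeR adjusted p = 0.00163), the 4th lowest p of all tested genes, and 0.0954% of tested genes had a lower log2 change. It was called under every alternative setting, with log2 changes between -3.04 and -2.65.

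AMOT encodes the founding angiomotin, first described as a binding partner of angiostatin. The gene (ENSG00000126016) lies on chromosome X at 112774503 to 112840815 on the minus strand. It had 88 and 124 counts in the gomisin G libraries and 172 and 216 counts in the vehicle libraries, or 6.08 and 7.83 CPM with gomisin G against 11.9 and 14.5 CPM with vehicle. The groups did not overlap, with vehicle replicate 2 highest and gomisin G replicate 1 lowest. The log2 change of -0.92 (SE 0.23) did not pass the edgeR test (adjusted p = 0.0864), and 3.07% of tested genes had a lower one. Leaving out gomisin G replicate 1 gave a log2 change of -0.76, and leaving out replicate 2 gave -1.12. The values were -1.07 without vehicle replicate 1 and -0.77 without vehicle replicate 2. In fits with 1 library in a group, the pair of the other group alone supplies the spread. The gene-level counts do not separate the long and short forms of AMOT, of which the long form alone carries the YAP-binding region.

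AMOTL1, the remaining angiomotin, was near the limit of detection. The gene (ENSG00000166025, chromosome 11, 94706431 to 94876753) had 0 and 2 counts in the gomisin G libraries and 4 and 8 counts in the vehicle libraries. Its vehicle-to-gomisin G ratio of summed, scaled counts was 6.20, with a 95% exact counting interval of 1.38 to 57.0 that covers counting error only. It did not pass the expression filter and so was not tested.

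The family as a whole can be set out per length, since CPM divided by the length of merged exons lets levels of different genes be roughly compared. Merged exons join all annotated transcripts of a gene, and which of these were expressed was not tested. A gene expressed mainly as a short transcript would be set too low, so CPM per kb is a rough unit. In that unit (CPM per kb) the summed angiomotin level was 3.83 and 5.03 in the gomisin G libraries and 28.3 and 26.2 in the vehicle libraries. The mean with gomisin G was 16.2% of the mean with vehicle. AMOTL2 made up 81.3% and 81.4% of the summed level in the gomisin G libraries and 95% and 93.3% in the vehicle libraries. AMOT made up 18.7% and 18.3% with gomisin G and 4.93% and 6.52% with vehicle. AMOTL2 thus remained the main angiomotin transcript in all 4 libraries while the share of AMOT was higher in both gomisin G libraries. An exact two-sided permutation test of 2 against 2 libraries cannot give a p below 0.333, so these shares are given as values.

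**Figure D2:**
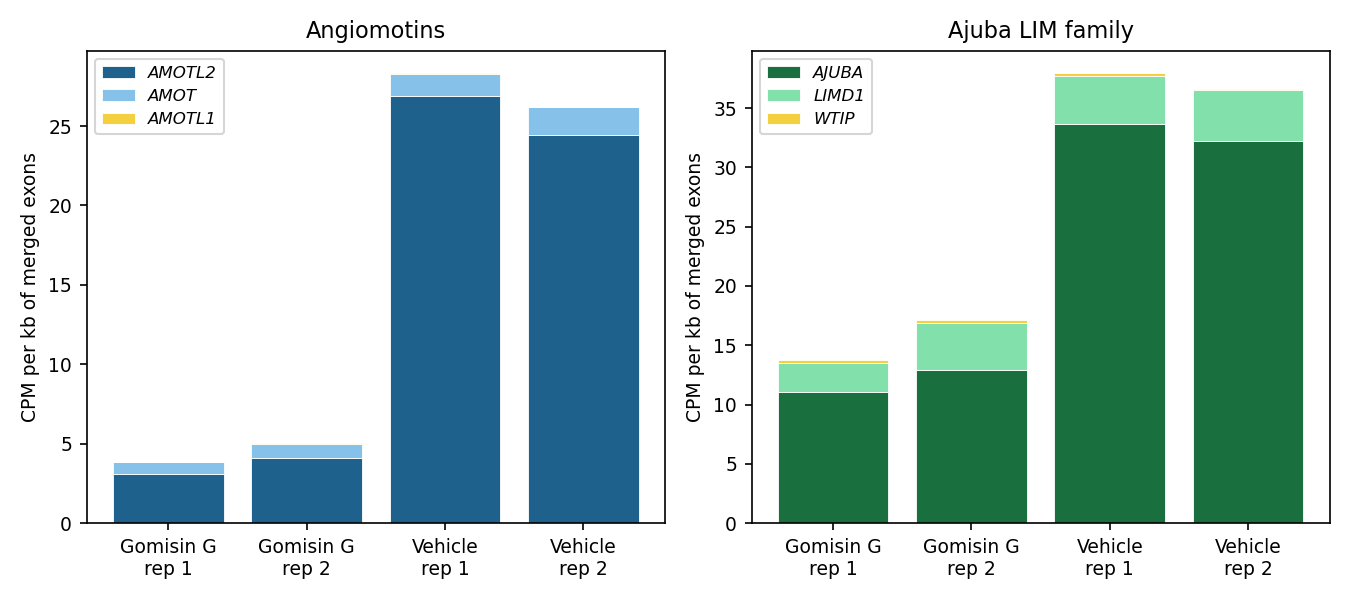
Level per length (CPM per kb of merged exons) in each library, stacked by gene, for the angiomotins on the left and the Ajuba LIM family on the right. The angiomotin total is 3.83 and 5.03 in the gomisin G libraries against 28.3 and 26.2 in the vehicle libraries, and the Ajuba family total is 13.7 and 17.1 against 37.9 and 36.6. AMOTL1 is too low to be seen.

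AJUBA encodes a LIM-domain adaptor of cell junctions that binds LATS kinases and, in other settings, SNAIL repressors and the mitotic kinase Aurora A. The gene (ENSG00000129474) lies on chromosome 14 at 22971174 to 22982642 on the minus strand. It had 961 and 1227 counts in the gomisin G libraries and 2915 and 2862 counts in the vehicle libraries. These were 66.4 and 77.5 CPM with gomisin G and 201.1 and 192.6 CPM with vehicle, with no overlap between the groups. The log2 change was -1.45 (SE 0.16, edgeR adjusted p = 0.0109), and 0.852% of tested genes had a lower one. It was called under every alternative setting, with log2 changes between -1.57 and -1.35.

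LIMD1 encodes a LIM protein that binds LATS kinases and also joins the hydroxylase EGLN1 and the ubiquitin ligase subunit VHL in one complex. The gene (ENSG00000144791) lies on chromosome 3 at 45555394 to 45686338 on the plus strand. It had 439 and 792 counts in the gomisin G libraries and 750 and 809 counts in the vehicle libraries, or 30.3 and 49.99 CPM with gomisin G against 51.7 and 54.4 CPM with vehicle. Replicate 1 of gomisin G was low, and replicate 2 lay just under the vehicle pair. The log2 change of -0.40 (SE 0.24, adjusted p = 0.370) did not pass the edgeR test. Its size depended on replicate 1 of gomisin G: the log2 change was -0.089 without that library and -0.81 without replicate 2. Without vehicle replicate 1 the log2 change was -0.44, and without vehicle replicate 2 it was -0.37. It was -0.20 with the trend over gene length removed (adjusted p = 0.462).

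WTIP encodes the remaining Ajuba-type protein, named for its binding to the Wilms tumour protein. The gene (ENSG00000142279) lies on chromosome 19 at 34481638 to 34512304 on the plus strand. It was scarce, with 47 and 47 counts in the gomisin G libraries and 45 and 22 counts in the vehicle libraries, or 3.25 and 2.97 CPM with gomisin G against 3.10 and 1.48 CPM with vehicle. The groups overlapped, and vehicle replicate 2 was the low library. The log2 change of 0.44 (SE 0.39, adjusted p = 0.549) did not pass the edgeR test, and it became -0.0014 without vehicle replicate 2 and 1.06 without vehicle replicate 1 (adjusted p = 1 and 0.570).

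Per length, the Ajuba family summed to 13.7 and 17.1 CPM per kb in the gomisin G libraries and 37.9 and 36.6 CPM per kb in the vehicle libraries, so that the mean with gomisin G was 41.4% of the mean with vehicle. AJUBA held 80.9% and 75.7% of that sum with gomisin G and 88.6% and 88.0% with vehicle. LIMD1 held 17.4% and 23.0% with gomisin G and 10.8% and 11.7% with vehicle, and WTIP held 1.72% and 1.26% with gomisin G and 0.596% and 0.294% with vehicle. Per length, AMOTL2 and AJUBA were the most abundant transcripts of their families in every library. Whether their changes differed from those of the other genes of their family was not tested.

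PTPN14 encodes a phosphatase with a FERM domain that binds YAP. The gene (ENSG00000152104) lies on chromosome 1 at 214348696 to 214552449 on the minus strand, and its merged exons span 18756 bases, the longest of the 7. It had 844 and 1342 counts in the gomisin G libraries and 1642 and 2068 counts in the vehicle libraries. These were 58.3 and 84.7 CPM with gomisin G and 113.3 and 139.2 CPM with vehicle, which do not overlap, although the libraries differed within each group. The log2 change of -0.82 (SE 0.21, adjusted p = 0.0930) did not pass the edgeR test. PTPN14 was called by DESeq2 (log2 change -0.83, adjusted p = 0.0110) and in the fit with the trend over gene length removed, where the log2 change shrank to -0.53 (adjusted p = 0.0452). The fit with the replicate number as a block also called it. It was not called by limma voom (adjusted p = 0.0952), or by edgeR with RLE factors (0.0964), upper-quartile factors (0.103) or no expression filter (0.106). Leaving out gomisin G replicate 1 gave a log2 change of -0.58, and leaving out replicate 2 gave -1.11. The values were -0.97 without vehicle replicate 1 and -0.67 without vehicle replicate 2.

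**Figure D3:**
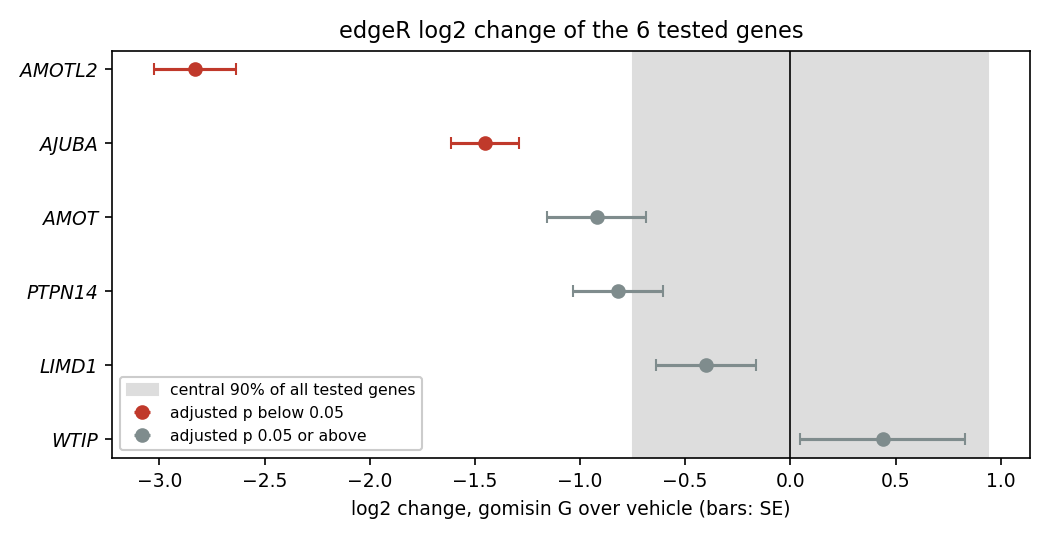
Log2 change, gomisin G over vehicle, of the 6 tested genes with SE bars, in red where the edgeR adjusted p is below 0.05, over a grey band that holds the central 90% of all 15721 tested genes (-0.75 to 0.94). AMOTL2 (-2.83) and AJUBA (-1.45) lie well outside the band, AMOT and PTPN14 just outside it, and LIMD1 and WTIP inside it.

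The order of the 7 genes by level per length differed between the groups. With gomisin G, AJUBA led at 12.03 ± 1.31 CPM per kb (mean ± SD, n = 2 libraries), followed by PTPN14 at 3.81 ± 0.996, AMOTL2 at 3.61 ± 0.690 and LIMD1 at 3.17 ± 1.10 CPM per kb. PTPN14, AMOTL2 and LIMD1 lay within each other's spread. With vehicle, AJUBA led at 32.9 ± 1.0 CPM per kb, AMOTL2 stood next at 25.7 ± 1.73, and PTPN14 at 6.73 ± 0.976 and LIMD1 at 4.19 ± 0.151 CPM per kb came after a wide gap. AMOT followed in both groups, at 0.818 ± 0.145 CPM per kb with gomisin G and 1.55 ± 0.222 with vehicle. WTIP (0.226 and 0.167 CPM per kb) and AMOTL1 (0.0063 and 0.0406 CPM per kb) were lowest with gomisin G and with vehicle.

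The gomisin G libraries differed from each other in a way that moved with gene length, and all 6 tested genes are among the longer ones. Tested genes were split into 5 equal groups by length. In the longest group (7705 bases or more) the median log2 difference of gomisin G replicate 1 minus replicate 2 was -0.33, and in the shortest group (2165 bases or less) it was 0.28. The same medians for vehicle replicates 1 and 2 were -0.07 and 0.10. AMOT, LIMD1, WTIP and PTPN14 belong to the longest group, and AMOTL2 and AJUBA to the next one, whose median was -0.14 in gomisin G. The log2 change of gomisin G over vehicle also moved with length. Its median was 0.215 in the shortest group, -0.075 in the group of AMOTL2 and AJUBA, and -0.186 in the longest group. Replicate 1 was below replicate 2 of gomisin G for 5 of the 6 genes, by a log2 difference of -0.72 for LIMD1, -0.54 for PTPN14, -0.39 for AMOTL2, -0.36 for AMOT and -0.22 for AJUBA. WTIP had a difference of 0.13. Against the vehicle mean, AMOTL2 lay at -3.03 in gomisin G replicate 1 and -2.64 in replicate 2, and AJUBA at -1.57 and -1.34. With the length trend removed, AMOTL2 (log2 change -2.77) and AJUBA (-1.39) kept their calls.

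**Figure D4:**
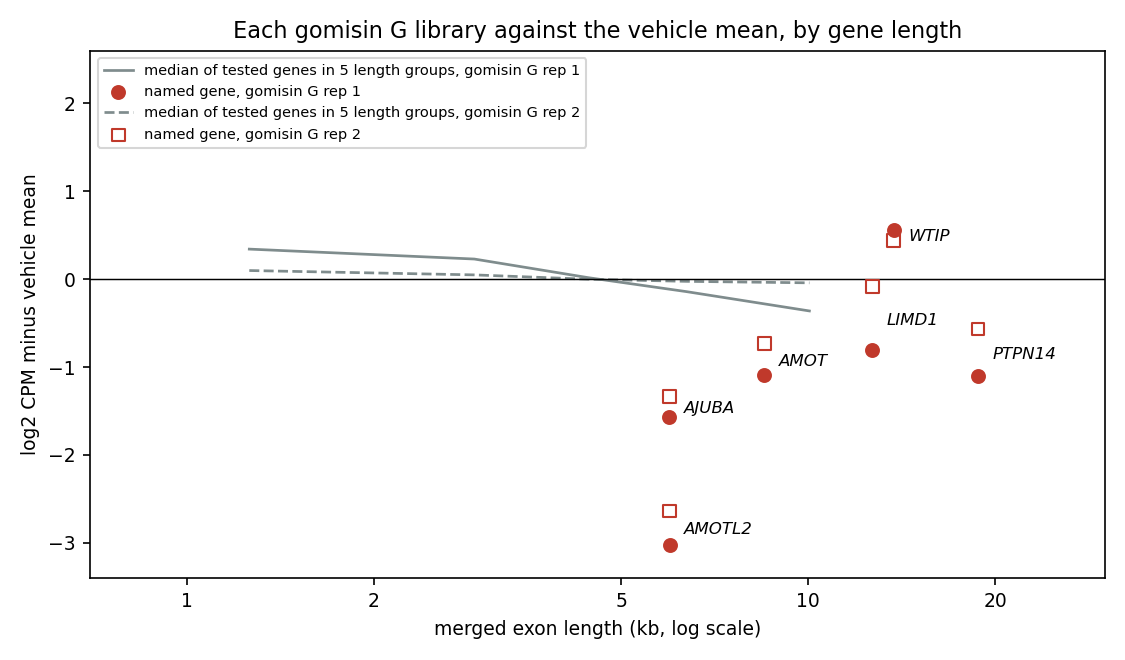
Log2 CPM of each gomisin G library minus the vehicle mean, against merged exon length on a log scale, for the 6 tested genes (filled circles for replicate 1, open squares for replicate 2) and as medians of all tested genes in 5 groups by length (grey lines). The grey line of replicate 1 falls to -0.36 in the longest group and that of replicate 2 to -0.04, while both AMOTL2 points lie at -2.64 or lower.

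Some exons of these genes overlap other annotated genes, and the sources used here do not say whether the counting went by strand or took reads with several matches. In AMOTL2, 187 exon bases are shared with RPL39P5, a pseudogene of the ribosomal protein gene RPL39, and in PTPN14, 1213 exon bases are shared with KRT18P12, a pseudogene of the keratin gene KRT18. Both pseudogenes had 0 counts in every library. RPL39 had 215.6 and 134.3 CPM with gomisin G and 185.1 and 126.6 CPM with vehicle, with an edgeR log2 change of 0.17 (adjusted p = 0.753). KRT18 was abundant at 2542 and 1722 CPM with gomisin G and 3126 and 2711 CPM with vehicle (log2 change -0.45, adjusted p = 0.337). The share of AMOTL2 or PTPN14 reads that came from these copies was not tested. LIMD1 shares 1029 exon bases with the antisense gene LIMD1-AS1, which had 0 and 1 counts with gomisin G and 2 and 2 counts with vehicle.

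The genes whose pattern over the 4 libraries was nearest to AMOTL2 and AJUBA were sought among the 10408 tested genes whose mean log2 CPM reached 3, by the Euclidean distance of centred log2 CPM values. For AMOTL2 these were CCN1 (CYR61 in the files; distance 0.40), C4BPB (0.50), CLIC5 (0.63), MAB21L4 (0.72) and TPM1 (0.88). CCN1, a matricellular protein gene and a standard YAP/TAZ readout, had 4.77 and 4.48 CPM with gomisin G and 39.8 and 38.1 CPM with vehicle. TPM1, a tropomyosin gene, had 54.9 and 54.5 CPM with gomisin G and 248.0 and 198.9 CPM with vehicle. For AJUBA they were the amino acid transporter gene SLC7A5 (0.06), the E2F factor gene E2F8 (0.11), ISM1 (0.13), TMEM200A (0.15) and the glutathione transferase gene GSTM2 (0.17). SLC7A5 had 201.0 and 234.7 CPM with gomisin G and 579.8 and 561.8 CPM with vehicle, and its log2 change was -1.39 (edgeR adjusted p = 0.0140). With 4 libraries in 2 groups, likeness mostly means a change of similar size. None of the 5 genes nearest to AJUBA was among those nearest to AMOTL2. That mostly follows from the unlike log2 changes of AJUBA (-1.45) and AMOTL2 (-2.83).

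Among the genes of the kinases and scaffolds around these adaptors, log2 changes ran from -1.67 to 0.32, none as low as that of AMOTL2. Of 23 Hippo kinase and scaffold genes, all tested, 3 fell and 0 rose, and 20 had a log2 change below 0, where 0.903% of all tested genes fell and 49.3% had a log2 change below 0. The median was -0.28, with -0.50 for replicate 1 of gomisin G and -0.12 for replicate 2 against the vehicle mean. The count of 3 that fell was 5 with the trend over gene length removed, where 464 of all 15721 tested genes were called lower. It was smaller without either vehicle library and larger without either gomisin G library, and so was the count over all tested genes. LATS2, a kinase bound by Ajuba-type proteins, had 25.5 and 38.1 CPM with gomisin G and 68.0 and 78.5 CPM with vehicle (log2 change -1.20, edgeR adjusted p = 0.0391). The other 2 that fell were the KIBRA-family scaffold genes WWC2 (log2 change -1.67, adjusted p = 0.0291) and WWC1 (-0.94, adjusted p = 0.0477). The call of LATS2 was lost when vehicle replicate 2 was left out (adjusted p = 0.0952), and that of WWC1 when either vehicle library was (adjusted p = 0.206 without replicate 1 and 0.256 without replicate 2). The paralog LATS1 had 50.6 and 67.5 CPM with gomisin G and 66.7 and 77.1 CPM with vehicle, with a log2 change of -0.28 (adjusted p = 0.427). Of 9 YAP, TAZ and TEAD factor genes 8 were tested, with a median of -0.29. EdgeR called 0 of them in either direction, against 1.83% of all tested genes. An unadjusted p below 0.05 was found for 4, against 20.6% of all tested genes. DESeq2 called 3 lower, and over the whole table of 58735 genes it called 431 lower. TEAD4 was nearest to the threshold (log2 change -0.83, adjusted p = 0.0548). YAP1 itself had 145.3 and 192.4 CPM with gomisin G and 193.3 and 198.9 CPM with vehicle (log2 change -0.22, adjusted p = 0.521).

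Genes for partners and turnover of angiomotins, such as polarity scaffolds, the NEDD4-type ligases and the tankyrases, had 0 calls in either direction among 16 tested of 18 (4 with an unadjusted p below 0.05 in either direction, 3 called lower by DESeq2), with a median of -0.24. Against the vehicle mean, replicate 1 of gomisin G had a median of -0.52 and replicate 2 one of -0.02. MPP5, which encodes the junction scaffold PALS1, had 29.8 and 35.4 CPM with gomisin G and 57.7 and 54.8 CPM with vehicle (log2 change -0.79, edgeR adjusted p = 0.0600). Partners of Ajuba-type proteins likewise had 0 calls among 17 tested of 18 (5 with an unadjusted p below 0.05, 1 called higher by DESeq2), with a median of -0.16. Of all tested genes, 20.6% had such an unadjusted p and edgeR called 1.83% in either direction. DESeq2, run without the expression filter, called 431 lower and 387 higher over the whole table of 58735 genes. SQSTM1, the autophagy receptor p62, had the lowest p among the partners of Ajuba-type proteins. It had 602.5 and 669.6 CPM in gomisin G libraries and 402.5 and 424.3 CPM in vehicle libraries (log2 change 0.62, edgeR adjusted p = 0.102).

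Relatives by domain structure gave 0 edgeR calls, where 1.83% of all tested genes were called in either direction. At that share a list of 4 genes would rarely hold a call. The zyxin-type LIM protein genes ZYX, TRIP6, LPP and FBLIM1 had 0 calls by edgeR and 0 by DESeq2 (1 unadjusted p below 0.05), with 3 of the 4 log2 changes above 0 and a median of 0.30. FBLIM1, which encodes migfilin, had 33.4 and 32.3 CPM with gomisin G and 24.1 and 19.0 CPM with vehicle (log2 change 0.61, adjusted p = 0.127). The FERM-domain phosphatase genes PTPN3, PTPN4, PTPN13 and PTPN21 had 0 calls by either tool and 0 unadjusted p-values below 0.05, with a median of -0.10. PTPN13 had a log2 change of -0.32 (edgeR adjusted p = 0.422). Of 14 apical-basal polarity genes edgeR called 0. DESeq2 called 1 lower, where it called 431 lower over the whole table of 58735 genes. An unadjusted p below 0.05 was found for 4 of the 14, where 20.6% of all tested genes had such a p. The median was -0.34, with -0.42 for replicate 1 of gomisin G and -0.08 for replicate 2, and PARD6B had a log2 change of -0.69 (adjusted p = 0.0891). In all of the lists with 0 edgeR calls, limma voom also called 0 genes.

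Other YAP/TAZ target genes were given by a list of 20 that leaves out the adaptors. Of 19 tested, 6 fell, 0 rose and 13 had an unadjusted p below 0.05, where 0.903% of all tested genes fell and 20.6% had such a p. The median log2 change was -1.11, and that of all tested genes 0.0092. CCN1 had a log2 change of -3.07 (edgeR adjusted p = 0.00147), CCN2 (CTGF in the files), another matricellular gene, -2.77 (adjusted p = 0.0252), and CCDC80 -2.04 (adjusted p = 0.0220). LATS2 is in this list and among the Hippo kinases, so the counts of these lists are not separate. AMOTL2 (-2.83) lies between CCN1 and CCN2, and AJUBA (-1.45) beyond the list's median. The count of 6 was 9 with the trend over gene length removed, where 464 of all 15721 tested genes were called lower. Without either vehicle library it was smaller and without either gomisin G library larger, as was the count over all tested genes.

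**Figure D5:**
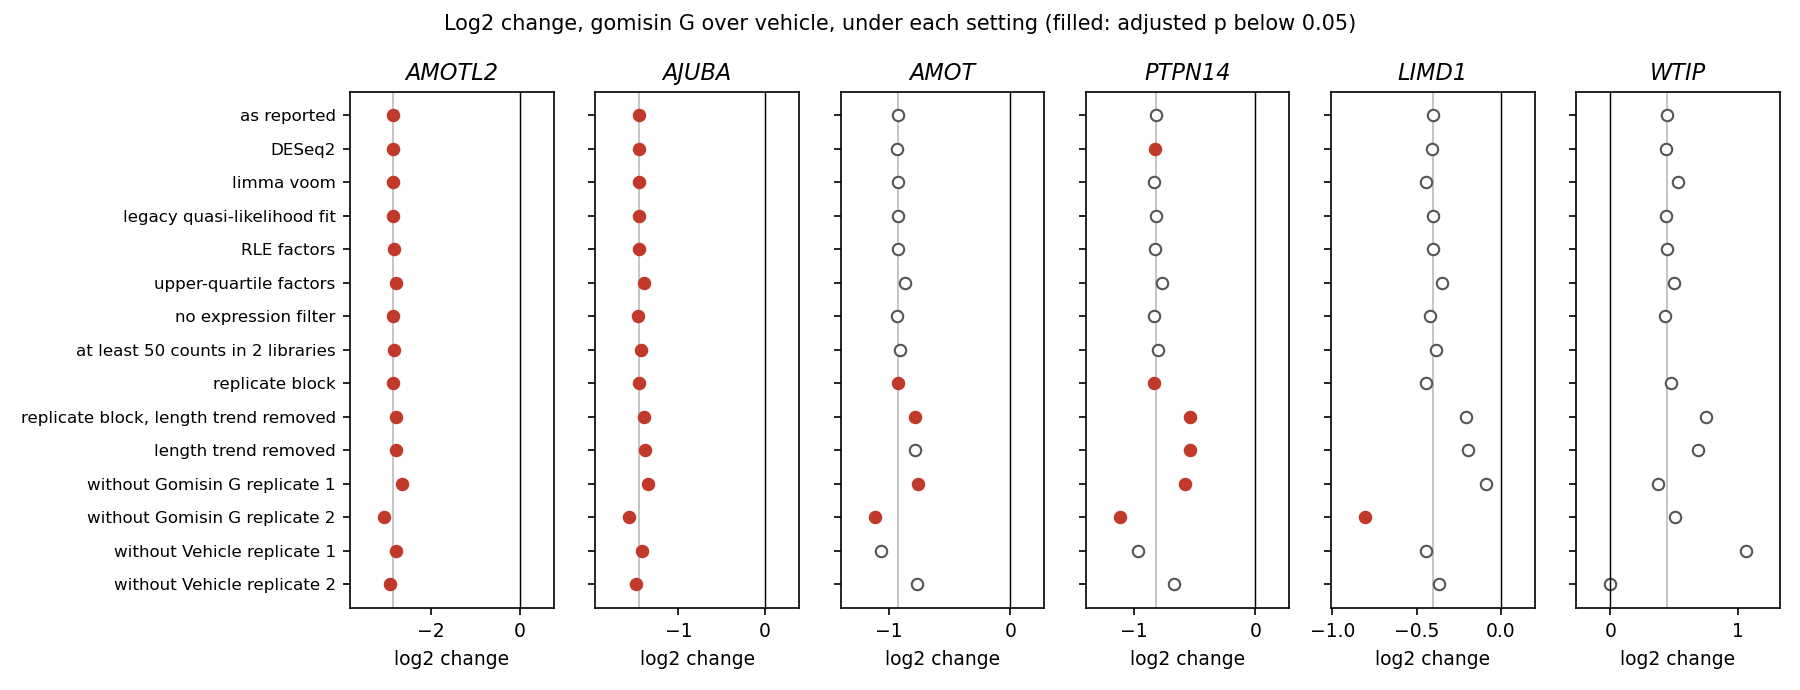
Log2 change, gomisin G over vehicle, of the 6 tested genes as reported and under each alternative setting (rows), filled where the adjusted p is below 0.05, with the reported value as a grey line and 0 as a black line. AMOTL2 and AJUBA are filled in every row and AMOT and PTPN14 in some. LIMD1 is filled only in the row without gomisin G replicate 2 (-0.81), where the vehicle pair alone supplies the spread. WTIP is filled in none, with 1 setting (without vehicle replicate 2) where it reaches -0.0014.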

How the data were processed

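RNA was extracted from frozen pellets of SW1990 cells and depleted of ribosomal RNA before library construction, per the labels' protocols. The authors deposited raw counts for each gene, without normalization. Trimming, alignment and counting involved fastp, HISAT2 and featureCounts on build hg38, per the submitters' processing notes. Versions, strand setting and the treatment of reads with several matches are not given in the sources used here. The series table and the 4 sample tables differed in 0 values. The deposited gene length column (bases) equalled the summed length of merged exons of GENCODE release 29 for 58724 of 58735 genes.

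The main test was the quasi-likelihood F test of edgeR 4.0.16 (R 4.3.3, robust option), run after filterByExpr and TMM scaling with treatment as the one term, which leaves 2 residual degrees of freedom. P-values were adjusted over all 15721 tested genes. Log2 changes are gomisin G over vehicle, the percent of the vehicle level is computed from them, and log2 CPM values use a prior count of 2. The edgeR fit was also run on simulated counts with known changes. Those counts held no trend over gene length, so this checked the code and not the fit on these data. Alternatives were DESeq2 1.42.0, limma 3.58.1 (voom), other factors, filters and fits, a loess over log2 gene length as an offset, the replicate number as a block, and leaving out each library. The 7 genes and 8 gene lists were chosen with earlier results of these data known. Genes named are the 7, up to 3 called genes with the lowest p in each list (or the 1 with the lowest p where none was called), and the 5 nearest to AMOTL2 and to AJUBA. LATS1 and YAP1, outside this rule, were named after their values were seen, as partners of the 7. KRT18, RPL39 and LIMD1-AS1 were named for their overlaps. Intervals and floors cover counting error only. Protein sequences were not used here. A planned marker list is not reported here.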

Additional observations from a re-analysis of the deposited data

How the results depend on the processing

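AMOTL2 and AJUBA kept direction and call under all 14 alternatives, with log2 changes of -3.04 to -2.65 and -1.57 to -1.35. AMOT, PTPN14 and LIMD1 kept their direction. In fits on all 4 libraries, PTPN14 became called with DESeq2 (-0.83), the length trend removed (-0.53), the replicate block (-0.84) and that block with the length trend removed (-0.53). AMOT became called in such fits with the block (-0.93) and the block with the length trend removed (-0.79). LIMD1 was not called in any fit on all 4 libraries. Leaving out 1 library gave -1.12 to -0.76 for AMOT, -1.11 to -0.58 for PTPN14, -0.81 to -0.089 for LIMD1 and -0.0014 to 1.06 for WTIP, which is the only reversal. WTIP had no value with at least 50 counts in 2 libraries. The number of the 7 genes called lower was 2, with 3 by DESeq2, 3 with the length trend removed and 4 with the replicate block. It was 4 with the block and the length trend removed, and larger than 2 when either gomisin G library was left out.

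Over all tested genes, 142 were called lower and 145 higher. These counts were 431 and 387 with DESeq2, 464 and 465 with the length trend removed, 1478 and 1408 with the replicate block, and 1439 and 1452 with the block and the length trend removed. Leaving out 1 library gave 66 to 3297 lower and 69 to 3025 higher, fewest without vehicle replicate 2 and most without gomisin G replicate 2. Genes of the 8 lists called lower and higher were 8 and 0, 20 and 1 with DESeq2, 17 and 1 with the length trend removed, 35 and 4 with the replicate block, 28 and 5 with the block and the length trend removed, and 4 to 57 and 0 to 11 when 1 library was left out. WWC1 missed the threshold with the legacy fit (adjusted p = 0.0512), RLE factors (0.0510) and upper-quartile factors (0.0546). Without gene length, AMOTL2 held 75.5% of angiomotin CPM with gomisin G and 91.8% with vehicle, and AJUBA 62.9% and 78.0% of its family. Per length, leaving out 1 library of a group gave AMOTL2 shares of 81.3% to 81.4% with gomisin G and 93.3% to 95% with vehicle. The AJUBA shares were then 75.7% to 80.9% with gomisin G and 88.0% to 88.6% with vehicle. The cause of the changes in call counts between settings was not tested. The replicate numbers of the labels name no shared culture or day, and the correlation over genes between same-numbered deviations from the group means was 0.215, from 2 pairs, so the block is only an alternative. With 2 libraries a group, each gene has only 2 residual degrees of freedom of its own. The edgeR test also draws on the spread of the other tested genes. At this depth AMOTL1 and WTIP are limited by low counts.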
